A study of Mus musculus with 2 samples.

Results

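The 8 genes described here, Pkmyt1, Wee1, Cdc25a, Cdc25b, Cdc25c, Cdk1, Ccnb1 and Ccnb2, set the activity of CDK1, the kinase that drives a cell from G2 into mitosis. They were taken by gene symbol from the deposited feature list, where each symbol occurred once, and make up 8 of its 32285 features. CDK1 is active only in complex with a cyclin, and Ccnb1 and Ccnb2 encode B-type cyclins. PKMYT1 (membrane-associated) and WEE1 (nuclear) hold the complex inactive by phosphorylating CDK1 near its ATP site, and the phosphatases CDC25A, CDC25B and CDC25C remove those phosphates. Active CDK1 in turn stimulates CDC25 and inhibits the kinases, so that entry into mitosis behaves as a switch. RP-6306, the compound given in the study, is an inhibitor of PKMYT1, and it acts on the protein, so the transcript level of Pkmyt1 does not check the treatment.

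RM-1, a mouse prostate cancer cell line with the genotype label WT in both samples, was grown under the skin of C57BL/6 mice. One group received vehicle and the other RP-6306, and tumours were taken on day 10 after treatment. The design text names 2 mice in all and each group is 1 library, so no difference between the groups has a replicate check and no p-value is given. Leukocytes sorted for CD45 were mixed with tumour cells at 3 to 1 before droplet capture with a 3′ kit that counts unique molecular identifiers (UMIs), so shares of cell classes in a library were set partly by that mixing. The tumour is 1 transplanted line in each library.

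After filtering, 16082 vehicle and 14916 RP-6306 cells remained, with medians of 3113.5 and 2846.5 UMIs. Cells were clustered without the 8 genes, and clusters 14, 15, 16 and 17 passed the naming rule on tumour markers, which gave 3177 vehicle and 3386 RP-6306 cells called tumour-like here. In them, 8 of 12 listed tumour markers lay at 10 CPM (UMIs scaled to 1000000 UMIs of the cells summed) or more, at 2624 CPM in sum in vehicle and 2592 CPM in RP-6306, with none at 0. Of other lists, T markers summed to 10.6 and 9.83 CPM and B markers to 13.5 and 12.1 CPM, NK markers to 128 and 83.8 CPM with 1 of 6 at 10 CPM or more, and fibroblast markers to 226 and 210.2 CPM with 2 of 6. Cluster 16, led by stress and matrix genes such as Cryab and Tnc, held 1568 of the vehicle tumour-like cells and 923 of the RP-6306 ones. Cluster 14 held 823 and 1348, and cluster 17, whose leading genes are histone and mitotic genes, held 774 and 1107, so the largest cluster of the class differs between the 2 libraries and values are also given by cluster. The libraries shared 374 cell barcodes, of which 347 and 350 were in kept cells; leaving them out moved none of the 8 members' log2 ratios in tumour-like cells by more than 0.0090.

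Promoter sequence was matched in the RefSeq table (GRCm38.p6) for 5 of the 8 genes. It is shown because B-MYB, FOXM1 and the DREAM complex are known to act on cell cycle promoters through a CHR element. Pkmyt1, Wee1 and Cdc25c were not matched. Each line gives the 250 bases before the RefSeq start site, 5′ to 3′ on the gene's strand, and capitals mark 3 searched motifs on either strand, the CHR (TTTGAA), the CCAAT box (CCAAT) and the E2F site (TTTNGCGC), none of which overlapped another here. The windows are chr9:109875329-109875578 (plus strand) for Cdc25a, chr2:131186698-131186947 (plus) for Cdc25b, chr10:69352913-69353162 (minus) for Cdk1, chr13:100786487-100786736 (minus) for Ccnb1 and chr9:70421555-70421804 (minus) for Ccnb2.
Cdc25a: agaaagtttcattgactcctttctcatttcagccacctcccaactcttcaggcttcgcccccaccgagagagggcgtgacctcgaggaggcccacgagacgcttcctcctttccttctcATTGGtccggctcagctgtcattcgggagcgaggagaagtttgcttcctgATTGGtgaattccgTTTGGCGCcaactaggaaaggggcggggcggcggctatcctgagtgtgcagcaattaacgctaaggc
Cdc25b: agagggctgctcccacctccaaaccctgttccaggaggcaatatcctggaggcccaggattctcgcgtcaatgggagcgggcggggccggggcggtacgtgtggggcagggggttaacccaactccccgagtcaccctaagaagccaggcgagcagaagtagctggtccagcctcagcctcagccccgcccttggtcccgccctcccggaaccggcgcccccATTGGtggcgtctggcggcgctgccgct
Cdk1: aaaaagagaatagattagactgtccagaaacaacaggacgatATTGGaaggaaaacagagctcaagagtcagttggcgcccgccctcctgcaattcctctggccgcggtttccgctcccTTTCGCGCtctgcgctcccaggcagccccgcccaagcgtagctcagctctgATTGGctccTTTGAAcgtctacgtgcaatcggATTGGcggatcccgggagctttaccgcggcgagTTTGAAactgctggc
Ccnb1: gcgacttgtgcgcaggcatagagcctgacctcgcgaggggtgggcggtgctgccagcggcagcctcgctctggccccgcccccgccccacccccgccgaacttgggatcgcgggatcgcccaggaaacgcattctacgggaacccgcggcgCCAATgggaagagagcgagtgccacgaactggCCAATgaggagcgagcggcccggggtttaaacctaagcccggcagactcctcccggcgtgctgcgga
Ccnb2: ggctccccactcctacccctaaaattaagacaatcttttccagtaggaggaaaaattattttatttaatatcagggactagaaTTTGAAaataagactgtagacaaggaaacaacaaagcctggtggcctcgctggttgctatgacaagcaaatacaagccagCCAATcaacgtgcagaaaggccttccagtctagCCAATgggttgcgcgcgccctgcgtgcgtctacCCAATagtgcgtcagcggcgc
The Cdk1 window held 2 CHR matches, 3 CCAAT boxes and 1 E2F match. Ccnb2 held 1 CHR match and 3 CCAAT boxes, with a second CHR match beginning at base 5 after the start site. Ccnb1 held 2 CCAAT boxes, Cdc25a held 2 CCAAT boxes and 1 E2F match, and Cdc25b held 1 CCAAT box. Among 32851 RefSeq promoter windows of this length, 15.99% held the CHR letters, 33.8% a CCAAT box, 10.1% at least 2 CCAAT boxes and 1.13% the E2F letters. A match describes the letters of the window and is not evidence of a bound factor.

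In the tumour-like cells the 8 members differed in how they stood between the libraries. Cdc25c, Ccnb1, Cdk1, Cdc25a and Ccnb2 were 1.39-fold to 1.67-fold higher in the RP-6306 library, whereas Pkmyt1, Wee1 and Cdc25b were 1.09-fold to 1.13-fold higher. By the rule used for counts, at least 25% higher on the CPM + 1 scale or lower by the same factor, 5 of 8 members were higher and 0 lower. The same rule called 6.74% of 17446 genes higher and 7.06% lower, and the median log2 ratio was 0.48 over the members and 0.01 over all genes. With 1 library a group, these counts describe the libraries.

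Pkmyt1, the drug's target, stood at 12.4 CPM in vehicle (95% Poisson interval 11.7 to 13.2) and 13.6 CPM in RP-6306 (12.9 to 14.3), a ratio of 1.09 (1.01 to 1.18) from 1078 and 1520 UMIs. The other inhibitory kinase, Wee1, stood at 21.8 CPM (20.8 to 22.8) and 24.5 CPM (23.6 to 25.5), a ratio of 1.13 (1.06 to 1.19). The intervals of the 2 libraries overlap for Pkmyt1, although the interval of its ratio excludes 1, and lie apart for Wee1. Overlap of the intervals of 2 libraries thus does not mean that their ratio's interval includes 1. Intervals in all results cover counting error only, since UMIs of 1 library share their animals, cells and preparation.

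Among the phosphatases, Cdc25a, which acts at both the G1/S and the G2/M transition, stood at 28.8 CPM in vehicle (27.6 to 29.9) and 41.1 CPM in RP-6306 (40.0 to 42.3), a ratio of 1.43 (1.36 to 1.503). Cdc25b, which starts CDK1 activation in G2, stood at 16.5 CPM (15.7 to 17.4) and 18.4 CPM (17.6 to 19.2), a ratio of 1.11 (1.04 to 1.19). Cdc25c, the phosphatase of the mitotic feedback loop, stood at 9.26 CPM (8.63 to 9.92) and 15.4 CPM (14.6 to 16.1), a ratio of 1.66 (1.52 to 1.81). The 3 phosphatases thus spread over a wider range of ratios than the 2 kinases.

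Cdk1 itself stood at 62.8 CPM in vehicle (61.2 to 64.5) and 91.2 CPM in RP-6306 (89.5 to 93.0), a ratio of 1.45 (1.40 to 1.501). Ccnb1, the cyclin that carries CDK1 into the nucleus, stood at 26.9 CPM (25.8 to 28.0) and 44.9 CPM (43.7 to 46.2), a ratio of 1.67 (1.59 to 1.76). Ccnb2, the Golgi-associated B-type cyclin, stood at 26.3 CPM (25.2 to 27.4) and 36.5 CPM (35.4 to 37.6), a ratio of 1.39 (1.32 to 1.46). For Cdk1 and both cyclins the counting intervals of the libraries lie apart. No single cell carried a value: the cell with the most UMIs of a member held between 0.361% and 0.872% of that member's UMIs in its library.

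These differences stand beside a difference in the mix of cell cycle states. Each tumour-like cell with at least 5000 UMIs was thinned to 5000 and scored for 43 S-phase and 51 G2/M genes, none of them a member, and a score above 0 put it in a state. In vehicle, 63.1% of 3119 cells were in neither state (exact 95% binomial interval 61.3% to 64.8%), and in RP-6306 46.6% of 3293 (44.9% to 48.3%). Cells with only the S score above 0 were 4.87% and 6.74%, cells with both scores above 0 were 22.1% and 33.0%, and cells with only the G2/M score above 0 were 9.97% and 13.7%. Every cycling state thus held a larger share of the RP-6306 cells. The states are ranges of 2 scores and not cell types, and 14.7% of vehicle and 19.4% of RP-6306 cells lay within 0.05 of a cut. Shallower cells, 58 and 93, were left out, and median depth was 26282 and 31260 UMIs per tumour-like cell. Genes outside the score lists moved with the states in part. Replication histones summed to 352 CPM in neither-state vehicle cells and 3602 CPM in vehicle cells with both scores. In S-only cells they summed to only 370 CPM in vehicle and 476 CPM in RP-6306, against 309 CPM in neither-state RP-6306 cells. G2/M-only cells had 1946 and 2518 CPM, so the histones did not bear out the S-only state as replicating cells. A mitotic set including Plk1 and Bub1b summed to 43.7 CPM in neither-state and 1099 CPM in G2/M-only vehicle cells.

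The members followed the states to very different degrees, in the same order in both libraries. From neither-state to G2/M-only cells, Ccnb1 went from 1.13 to 89.0 CPM in vehicle, 78.8-fold (60.0 to 106), and from 1.96 to 99.9 CPM in RP-6306, 50.9-fold (40.9 to 64.2). Cdc25c was 35.1-fold higher in vehicle (25.3 to 49.996) and 28.2-fold in RP-6306 (21.3 to 38.1), and Cdk1 13.7-fold (12.4 to 15.2) and 15.3-fold (13.9 to 17.003). Below these came Ccnb2 at 8.39-fold and 7.36-fold, Cdc25b at 5.03-fold and 5.81-fold, Wee1 at 3.60-fold and 3.72-fold and Pkmyt1 at 2.96-fold and 3.12-fold. Cdc25a differed least, 1.82-fold in vehicle (1.58 to 2.08) and 2.11-fold in RP-6306 (1.91 to 2.33). On the CPM + 1 scale 7 of the 8 members were at least 2-fold higher in G2/M-only cells in both libraries, against 2.63% of 14400 genes, and Cdc25a was the exception. Cdk1, Ccnb2 and Cdc25c were members of the G2/M list and were left out of it before scoring. The states were cut on the rest of that list, so this count was largely set in advance and only describes the states.

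**Figure D1:**
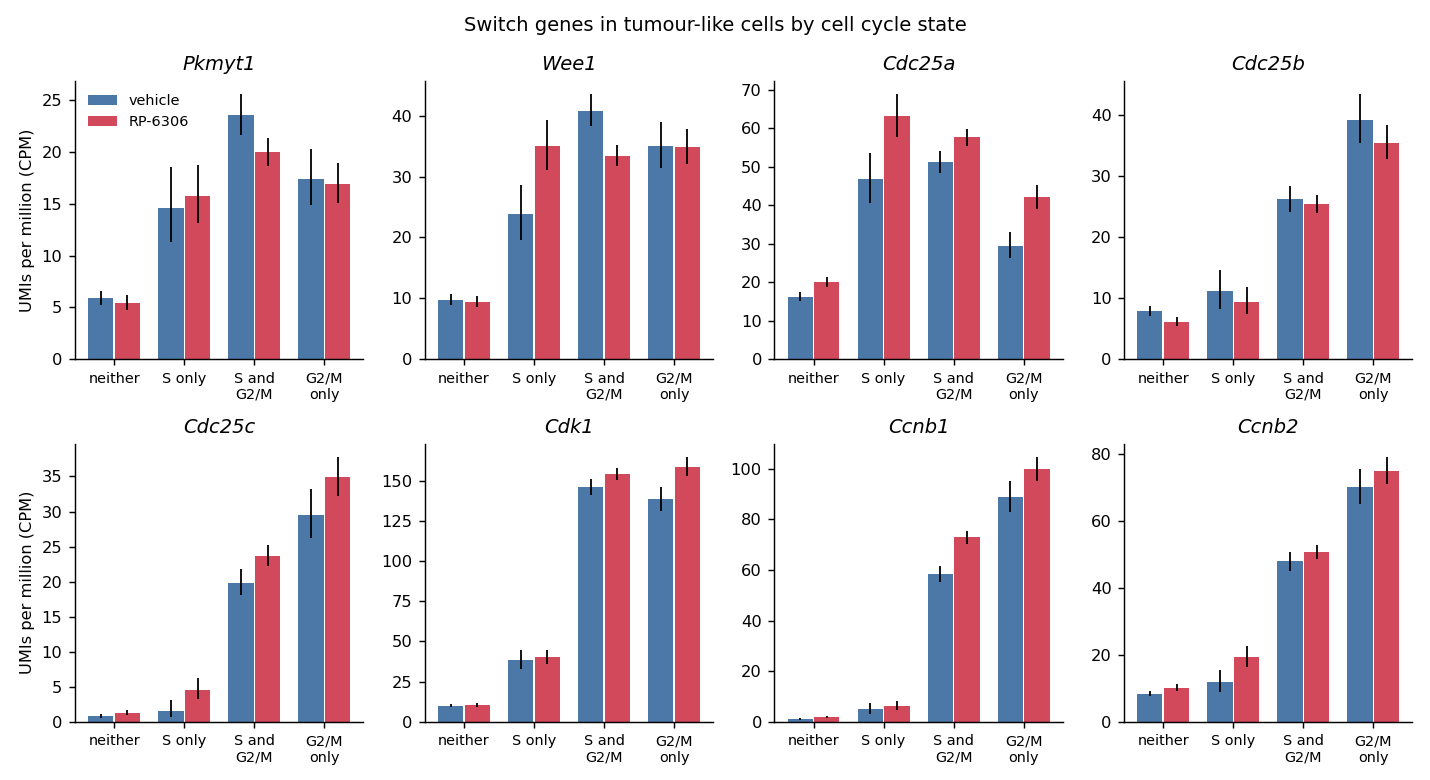
Level of each switch gene in tumour-like cells (bars, CPM) in 4 cell cycle states, vehicle in blue and RP-6306 in red, with 95% Poisson intervals that cover counting error only. Ccnb1 and Cdc25c are close to 0 in neither-state cells, at 1.13 and 0.841 CPM in vehicle, while Pkmyt1, Wee1 and Cdc25a are present in all 4 states.

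The state with the highest level also separated the members. Cdc25b, Cdc25c, Ccnb1 and Ccnb2 were highest in G2/M-only cells in both libraries, with Ccnb2 at 70.1 CPM in vehicle and 74.9 CPM in RP-6306. Pkmyt1 was highest in cells with both scores, at 23.5 CPM in vehicle (21.6 to 25.6) and 19.98 CPM in RP-6306 (18.7 to 21.4), where it overlaps the G2/M-only interval (15.04 to 19.0). Wee1 was highest there in vehicle, at 40.9 CPM against 35.1 CPM in G2/M-only cells with intervals that overlap, and stood at 35.1, 33.5 and 34.9 CPM in the 3 cycling states of RP-6306, values whose intervals overlap. Cdc25a reached 51.1 CPM in vehicle cells with both scores and 46.7 CPM in S-only cells, which do not differ beyond their intervals, and in RP-6306 63.1 CPM in S-only cells and 57.6 CPM in cells with both scores, which also overlap. Cdk1 was about equally high in cells with both scores and in G2/M-only cells, at 146 and 138 CPM in vehicle and 154 and 159 CPM in RP-6306.

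Within a state, most of the differences between libraries were smaller. Holding both libraries to the state shares of their pooled UMIs gave log2 ratios of 0.27 for Cdc25a, 0.26 for Cdc25c, 0.27 for Ccnb1, 0.13 for Ccnb2 and 0.11 for Cdk1. The same weighting gave -0.14 for Pkmyt1, -0.12 for Wee1 and -0.13 for Cdc25b, so these 3 members were higher in the RP-6306 library over all tumour-like cells and lower once the state shares were held equal. Without the weighting, in the same cells, the log2 ratio was 0.53 for Cdk1 and 0.12 for Pkmyt1. The depth of each cell and the cluster mix also differed between the libraries, and their part in these values was not tested.

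Cdc25a was higher in RP-6306 in each of the 4 states. It stood at 16.2 and 19.96 CPM in neither-state cells, 46.7 and 63.1 CPM in S-only cells, 51.1 and 57.6 CPM in cells with both scores, and 29.4 and 42.1 CPM in G2/M-only cells. The ratios were 1.23 (1.12 to 1.36), 1.35 (1.15 to 1.59), 1.13 (1.05 to 1.21) and 1.43 (1.24 to 1.64), so the counting interval excluded 1 in every state. Cdc25a was also higher in RP-6306 in each of the 3 large tumour clusters, at 27.6 and 41.0 CPM in cluster 14, 19.2 and 23.6 CPM in cluster 16 and 44.1 and 51.2 CPM in cluster 17.

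The inhibitory kinases were lower in RP-6306 in the cells with both scores. Wee1 stood at 40.9 CPM in vehicle (38.3 to 43.6) and 33.5 CPM in RP-6306 (31.8 to 35.2) there, and Pkmyt1 at 23.5 and 19.98 CPM. In S-only cells Wee1 stood the other way, at 23.8 CPM (19.5 to 28.7) and 35.1 CPM (31.1 to 39.4), a ratio of 1.48 (1.18 to 1.86). The S-only cells came mostly from different clusters in the 2 libraries, 63 from cluster 14 and 87 from cluster 16 in vehicle against 151 and 62 in RP-6306, and the part of this in the Wee1 value was not tested. G2/M-only cells showed close values of both kinases, 35.1 and 34.9 CPM for Wee1 and 17.4 and 16.9 CPM for Pkmyt1. By cluster, Wee1 was lower in RP-6306 in cluster 17, at 44.8 and 37.5 CPM, and higher in cluster 14, at 10.7 and 17.5 CPM. Pkmyt1 was lower in cluster 17, at 23.3 and 20.4 CPM, a ratio of 0.878 (0.792 to 0.973). Its ratio was 1.06 (0.888 to 1.26) in cluster 14 and 1.01 (0.827 to 1.22) in cluster 16.

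The other members also showed within-state differences whose counting interval excluded 1. Cdc25b was lower in RP-6306 in neither-state cells, at 7.82 and 6.12 CPM, a ratio of 0.783 (0.666 to 0.918). Ccnb1 was higher in cells with both scores, at 58.2 CPM (55.2 to 61.4) and 73.0 CPM (70.5 to 75.6), in G2/M-only cells, at 89.0 and 99.9 CPM, and in neither-state cells, at 1.13 and 1.96 CPM from 55 and 84 UMIs. Its partner Ccnb2 was higher in neither-state cells, at 8.35 and 10.2 CPM, and in S-only cells, at 11.8 and 19.3 CPM. By cluster Ccnb2 stood the other way in cluster 16, at 7.41 and 5.51 CPM, a ratio of 0.744 (0.605 to 0.911), and was higher in RP-6306 in cluster 14, at 32.1 and 37.97 CPM. Cluster 16 held 1432 of the 1967 vehicle and 831 of the 1534 RP-6306 neither-state cells and cluster 14 held 524 and 696, and the part of this shift in the neither-state values was not tested. Cdc25c was higher in every cycling state, at 19.9 and 23.7 CPM in cells with both scores, though its S-only value rests on 7 and 37 UMIs. For Cdk1 the ratio was 1.06 (1.02 to 1.10) in cells with both scores and 1.15 (1.07 to 1.22) in G2/M-only cells, against 1.02 in neither-state cells. By cluster its ratio was larger in cluster 14, at 1.67 (1.51 to 1.86), than in cluster 16, at 1.04, and cluster 17, at 1.07. In cluster 14 the ratio was 1.48 (1.30 to 1.69) for Ccnb1 and 1.62 (1.33 to 1.97) for Cdc25c. The same genes had 1.19 and 1.14 in cluster 17, and 1.43 and 1.38 in cluster 16 with intervals that include 1.

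By the same 25% rule, 1 of 8 members was higher in neither-state cells (Ccnb1), 4 in S-only cells (Wee1, Cdc25a, Cdc25c and Ccnb2), 0 in cells with both scores and 1 in G2/M-only cells (Cdc25a), and 0 were lower in any state. The genes called higher were 5.77%, 14.5%, 7.34% and 10.5% of those measured in the 4 states in that order, and the genes called lower 6.45%, 12.1%, 10.3% and 8.97%. S-only cells, the smallest group with 152 and 222 cells, had the widest intervals. The S-only count lies well above the share of all genes called there, whereas the other states held 0 or 1 member. No state had as many members called higher as the 5 of 8 over all tumour-like cells.

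**Figure D2:**
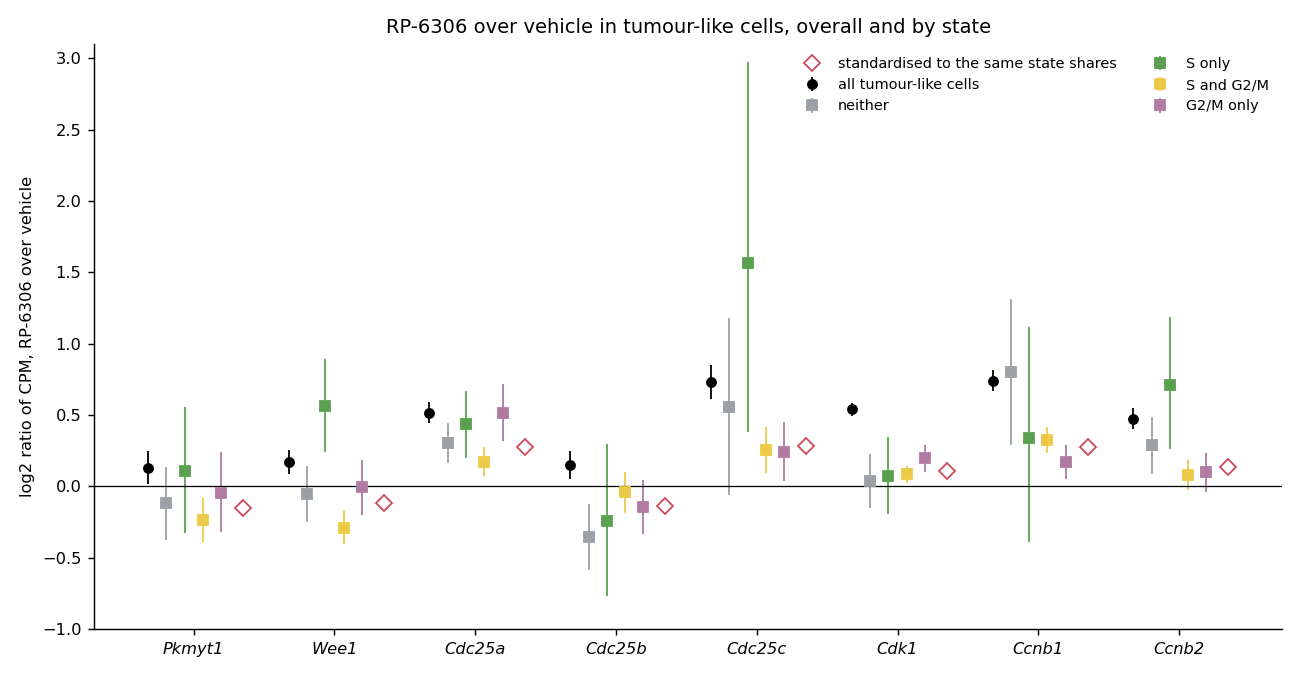
Log2 ratio of CPM, RP-6306 over vehicle, for each switch gene over all tumour-like cells (black), within each state (squares) and held to equal state shares (open diamonds). No pseudocount was added in the figure, unlike in the log2 ratios of the text. Lines are 95% intervals of the ratio for counting error only. Pkmyt1, Wee1 and Cdc25b lie above 0 over all cells and below 0 when the shares are held equal, and Cdc25a lies above 0 in every state.

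Along the cycling cells, ordered from a high S score to a high G2/M score in 6 bins, the members differed in shape. Ccnb1, Cdc25c, Cdk1, Cdc25b and Ccnb2 were lowest in the first bins and highest in the last, Ccnb1 by 14.2-fold in vehicle and 11.6-fold in RP-6306 and Cdk1 from 67.5 to 199 CPM and from 70.5 to 220 CPM. Cdc25a was highest in the first 2 bins, at 60.6 and 60.7 CPM in vehicle and 74.0 and 59.3 CPM in RP-6306. Pkmyt1 was nearly level, the highest bin 1.21-fold over the lowest in vehicle and 1.30-fold in RP-6306, whereas Wee1 had its higher levels at both ends, the highest bin 1.84-fold and 1.66-fold over the lowest.

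The libraries differed along this order as well. In the last bin Cdc25a stood at 33.9 CPM in vehicle (29.6 to 38.8) and 48.6 CPM in RP-6306 (44.6 to 52.8), and in the first at 60.6 and 74.0 CPM. Ccnb1 was higher in RP-6306 in bins 1 to 4, for example 35.1 CPM (30.7 to 40.0) and 51.9 CPM (47.8 to 56.4) in bin 3, close in bin 5 at 109 and 104 CPM, and higher in bin 6 at 118 and 148 CPM. Pkmyt1 was lower in RP-6306 in 6 of 6 bins and Wee1 in 4 of 6, with Wee1 at 39.3 and 32.0 CPM in bin 5, and in each of these bins the intervals of the 2 libraries overlap. Intervals of the ratio were not computed by bin, so the overlap does not show that these levels are equal. Cdc25c was higher in 6 of 6 bins, and Cdc25a, Cdk1 and Ccnb1 in 5 of 6. The 2 libraries' cells within a bin were not matched exactly: replication histones summed to 2905 CPM in vehicle and 3669 CPM in RP-6306 in bin 4, and the part of such shifts was not tested.

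**Figure D3:**
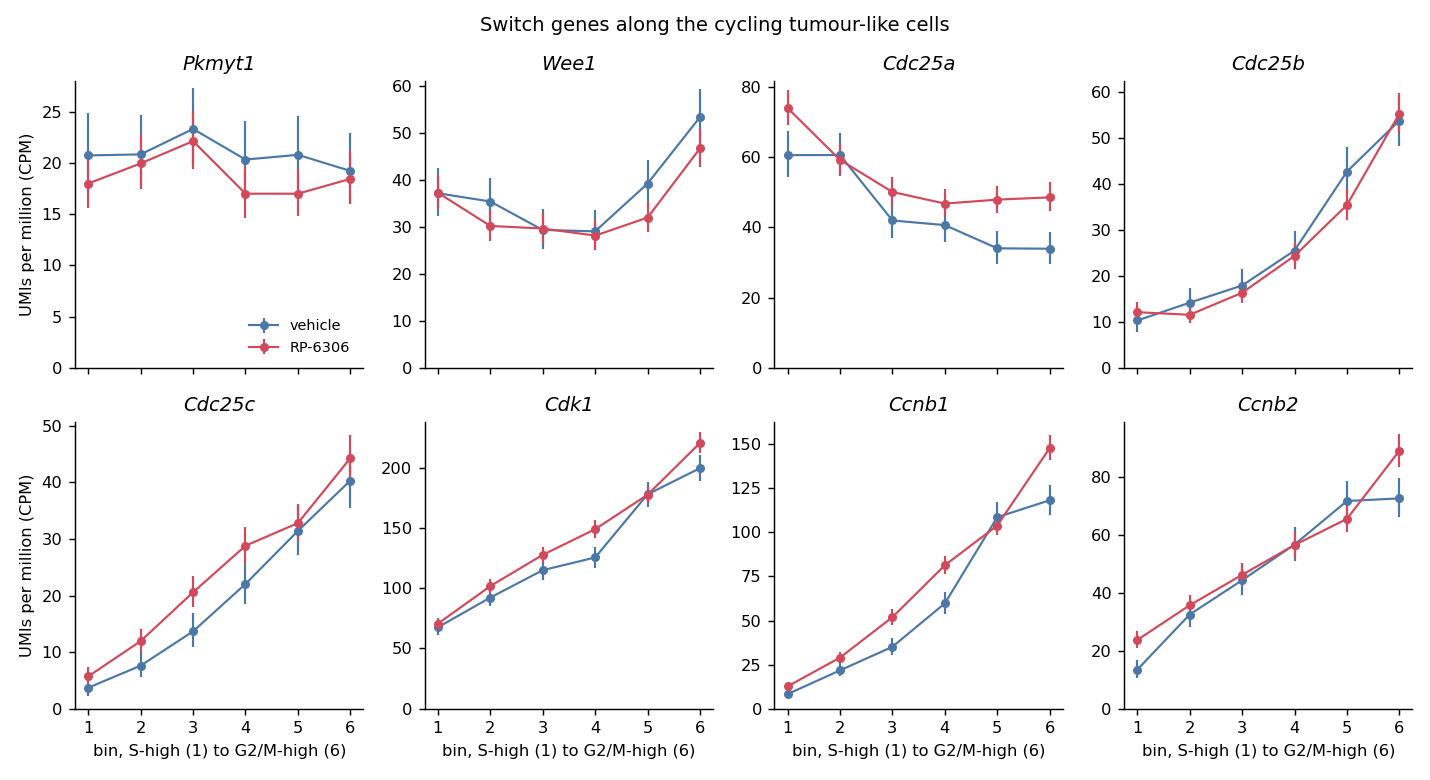
Level of each switch gene (CPM) in 6 equal bins of the cycling tumour-like cells, from the highest S minus G2/M score (bin 1) to the lowest (bin 6), vehicle in blue and RP-6306 in red, with 95% Poisson intervals. Pkmyt1 is nearly level, Cdc25a is highest in the first 2 bins, and Ccnb1 climbs to 118 CPM in vehicle and 148 CPM in RP-6306.

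The balance between the genes was also read as ratios of UMIs, compared across libraries and states only, since capture efficiency differs between genes and 3′ counts carry no length term. The UMIs of Pkmyt1 and Wee1 over those of the 3 CDC25 genes came to 0.627 in vehicle (0.599 to 0.657) and 0.510 in RP-6306 (0.491 to 0.529). In cells with both scores the ratio was 0.663 (0.621 to 0.708) and 0.501 (0.476 to 0.527), in G2/M-only cells 0.534 and 0.461, and in neither-state cells 0.629 and 0.542. The intervals lie apart in cells with both scores and overlap in the other 2 of these states, while in S-only cells the ratio was 0.647 (0.532 to 0.785) and 0.660 (0.582 to 0.749). By cluster it was 0.667 and 0.525 in cluster 17, 0.665 and 0.620 in cluster 16, and 0.452 and 0.443 in cluster 14, with overlapping intervals in the latter 2.

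B-type cyclin UMIs per Cdk1 UMI came to 0.846 in vehicle (0.813 to 0.880) and 0.892 in RP-6306 (0.868 to 0.918). The ratio was 0.728 and 0.801 in cells with both scores and 1.15 and 1.10 in G2/M-only cells, where the intervals overlap. By cluster it was lower in RP-6306 in cluster 14, at 2.03 in vehicle (1.81 to 2.27) and 1.55 in RP-6306 (1.45 to 1.65). It was 0.707 and 0.582 in cluster 16 and 0.740 and 0.781 in cluster 17, with overlapping intervals in both, so the direction over all tumour-like cells did not hold in every cluster. Ccnb1 over Ccnb2 was 1.02 (0.965 to 1.08) in vehicle and 1.23 (1.18 to 1.28) in RP-6306 over all tumour-like cells. Within states this ratio ran from 0.135 in neither-state vehicle cells to 1.44 in RP-6306 cells with both scores. Among the phosphatases, Cdc25a gave 3.69 UMIs per UMI of Cdc25b and Cdc25c in S-only vehicle cells and 0.428 in G2/M-only ones, and 4.53 and 0.598 in RP-6306.

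**Figure D4:**
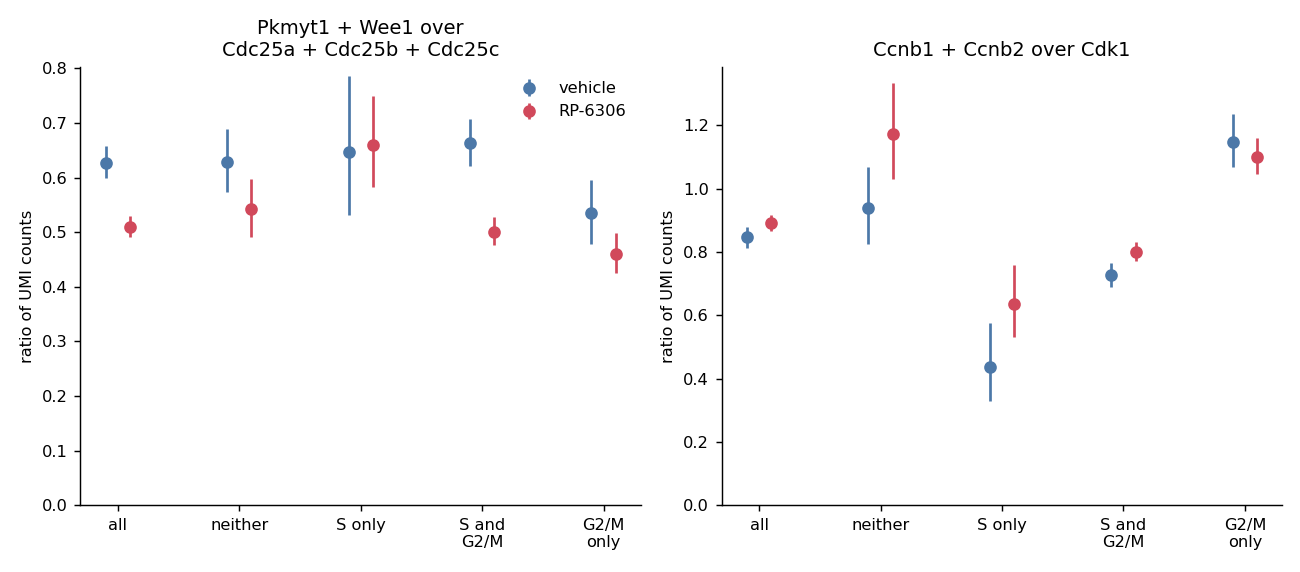
Ratio of UMI counts of the inhibitory kinases to the CDC25 phosphatases (left) and of the B-type cyclins to Cdk1 (right) in all tumour-like cells and in each state, vehicle in blue and RP-6306 in red, with 95% intervals for counting error. The kinase to phosphatase ratio is 0.663 in vehicle and 0.501 in RP-6306 in cells with both scores.

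Shares of cells with a UMI were compared at equal depth. At 5000 UMIs a cell, Cdk1 had a UMI in 18.4% of vehicle and 26.5% of RP-6306 tumour-like cells (43.8% and 58.5% unthinned), and Pkmyt1 in 5.23% and 6.41% (25.2% and 31.0%). For the other members the shares at that depth were 8.85% and 10.4% for Wee1, 11.9% and 16.5% for Cdc25a, 6.86% and 7.65% for Cdc25b and 3.75% and 6.53% for Cdc25c, and 8.95% and 15.002% for Ccnb1 and 10.8% and 14.3% for Ccnb2. At 1000 UMIs, Cdk1 was found in 5.67% and 7.22% of tumour-like cells but in 0.857% and 0.355% of CD8 T-like cells, whose median depths were 3283 and 2893 UMIs. The tumour-like shares of Cdk1 lie above the CD8 T-like shares in both libraries.

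Leukocytes carried the members unevenly. A level expected from tumour RNA was set for each class from the tumour markers found in it, which stood between 1.88% and 9.87% of their tumour-like level in the 7 classes with at least 50 cells in both libraries. Cdc25a, at 11.04 to 26.6 CPM, and Pkmyt1, at 3.77 to 14.97 CPM, had their lower bound above that level in all 14 class and library pairs, the level reaching at most 2.84 and 1.23 CPM. Wee1 did so in 12 of 14 pairs and Cdc25b in 13 of 14. Cdk1 did so in 8, Ccnb1 in 8, Ccnb2 in 10 and Cdc25c in 2. The level from tumour markers rises with a member's tumour-like level and reached 6.20 CPM for Cdk1. The median of Cdk1 over the pairs, 7.57 CPM, lay above the 6.54 CPM of Pkmyt1. These counts of pairs therefore do not rank the members by their level in leukocytes. Markers measure that level only as far as free RNA keeps the tumour cells' proportions.

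Between libraries, 3 leukocyte classes showed ratios whose counting interval excluded 1. In macrophage and monocyte-like cells Cdc25a stood at 12.3 CPM in vehicle (8.72 to 16.8) and 26.6 CPM in RP-6306 (22.2 to 31.6), from 487 and 513 cells. Wee1 (5.03 and 9.21 CPM, a ratio of 1.83 with an interval of 1.02 to 3.47) and Cdk1 (10.4 and 18.01 CPM) were also higher there in RP-6306. Beside them the proliferation markers in that class summed to 279 and 530 CPM and median depth was 5711 and 7775 UMIs, and their part in the result was not tested. B-like cells had Wee1 at 8.17 CPM (6.33 to 10.4) and 4.18 CPM (2.82 to 5.96) and Cdk1 at 9.38 and 5.15 CPM, while their tumour markers stood at 9.87% and 5.09% of the tumour-like level and their proliferation markers summed to 273 and 159 CPM. Of the 67 and 30 Wee1 UMIs in B-like cells, 10 and 1 came from cluster 2, which has 33 vehicle and 10 RP-6306 cells, and the part of these in the result was not tested. T-like cells of no named subclass had Ccnb1 at 9.86 and 2.30 CPM, from 19 and 2 UMIs. Their cluster T9, with proliferation markers at 807 and 1077 CPM, had Ccnb2 at 26.7 CPM (16.5 to 40.8) and 30.7 CPM (14.02 to 58.2), from 21 and 9 UMIs.

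**Figure D5:**
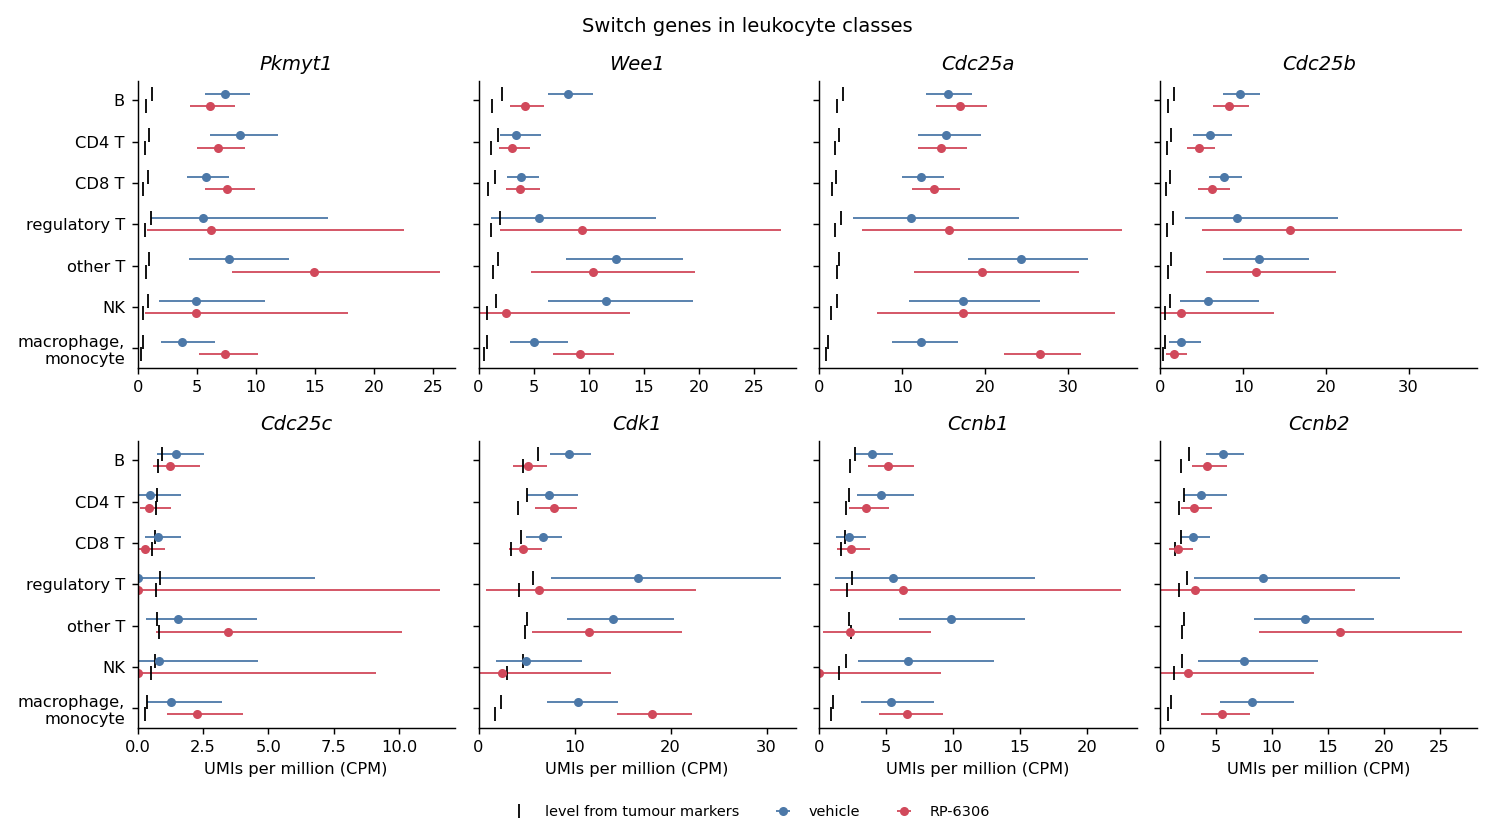
Level of each switch gene (CPM, 1 scale per gene) in 7 leukocyte classes, vehicle in blue and RP-6306 in red, with 95% Poisson intervals; black ticks give the level that tumour markers in the class would bring. Cdc25a lies to the right of its tick in every class and is highest in macrophage and monocyte-like RP-6306 cells at 26.6 CPM.

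The 5 lists of pathway genes around the switch were read in the same tumour-like cells. Over all genes, 6.74% were called higher and 7.06% lower by this rule. Of 10 other cyclins and CDK partners, 6 were at least 25% higher and 1 lower by the same factor in RP-6306, with a median log2 ratio of 0.40. Ccne1, cyclin E1 of the G1/S transition, stood at 12.97 and 25.0 CPM, a log2 ratio of 0.90, and Ccne2 at 19.8 and 31.4 CPM (0.64). Ccnf, a substrate receptor of an SCF ubiquitin ligase, stood at 22.2 and 35.9 CPM (0.67) and Ccna2, the cyclin of S and G2, at 65.5 and 99.8 CPM (0.60). The lower gene, Gadd45a, a DNA damage-inducible inhibitor of CDK1, was picked out after its values were seen and stood at 40.5 and 27.8 CPM.

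Of 18 genes of the checkpoint signal to CDC25, 1 was higher and 1 lower, near the shares over all genes, with a median log2 ratio of 0.23. Clspn, which helps ATR activate CHK1 and is also an S list gene, stood at 35.7 and 49.6 CPM (0.46), while Hus1 had a log2 ratio of 0.32, Atr 0.31 and Topbp1 0.29. Sfn, the 14-3-3 sigma gene, was the lower one at 1.245 and 0.636 CPM, also picked out after its values were seen. Of 12 mitotic entry kinases and regulators of PP2A-B55, 3 were higher and 0 lower, with a median of 0.15. They were Plk1, the kinase that marks WEE1 for destruction, at 50.9 and 85.0 CPM (0.73), Aurka at 43.6 and 65.5 CPM (0.58) and its cofactor gene Bora at 15.7 and 21.7 CPM (0.44).

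Of 8 genes of ubiquitin ligases that destroy members of the switch, 2 were higher and 0 lower, with a median of 0.14. Cdc20, the mitotic activator of the anaphase-promoting complex, stood at 23.8 and 40.3 CPM (0.74) and Fbxo5, its inhibitor EMI1, at 26.1 and 39.7 CPM (0.59), while Fzr1 had a log2 ratio of 0.30 and Anapc10 0.18. Of 16 transcription regulators of G1/S and G2/M genes, 8 were higher and 0 lower, with a median of 0.32. Mybl2, which encodes B-MYB, stood at 20.999 and 32.7 CPM (0.62), E2f7 at 15.8 and 24.2 CPM (0.59), E2f8 at 32.5 and 46.7 CPM (0.51) and Rbl1 at 48.7 and 64.3 CPM (0.39). All medians stand against 0.01 over all genes and beside the larger share of cycling cells in RP-6306. Of the genes named, Aurka, Ccne2, Cdc20 and E2f8, like Clspn, also belong to the score lists that set the states. So do some unnamed genes among the other cyclins and CDK partners, a gene called higher included. Counts within neither-state, S-only, both-score and G2/M-only cells follow in that order. Of the transcription regulators 3, 8, 0 and 2 were higher and 0, 1, 0 and 0 lower. Of the other cyclins and CDK partners 3, 5, 1 and 3 were higher and 0, 1, 1 and 1 lower. Over all genes 5.77%, 14.5%, 7.34% and 10.5% were called higher. The shares called lower were 6.45%, 12.1%, 10.3% and 8.97%, and several of these counts lie near such shares. The 3 other lists held 0 to 2 higher genes in each state.

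Across 23 pairs of a library with a tumour-like state or a leukocyte class of at least 50 cells, the 3 genes with the profile most like each member were found among 11641 genes by Pearson r of log2(CPM + 1), as a description over units that share libraries. For Cdk1 they were Bub1b (0.977), Ncaph (0.964) and Spdl1 (0.959), and for Ccnb1 they were Prr11 (0.973), Aurka (0.953) and Ska1 (0.952). Cdc25c stood nearest Kif20a (0.949), Iqgap3 (0.944) and Anp32e (0.935), and Ccnb2 nearest Birc5 (0.924), Kpna2 (0.921) and Spag5 (0.917). Aurka, Anp32e and Birc5 belong to the G2/M score list that set the tumour-like states, so their likeness to these members is partly built in. Pkmyt1 had Topbp1 (0.963), Rtel1 (0.946) and Aaas (0.945), and Cdc25a had Mthfd1 (0.979), Baz1b (0.968) and, again, Topbp1 (0.965). Wee1 had Snrpe (0.955), Nup155 (0.947) and Ncaph (0.944). Cdc25b was the member with the weakest neighbours, Rad21 (0.881), Ska2 (0.879) and Kif18a (0.862). Among the members themselves r was highest for Pkmyt1 with Cdc25a, at 0.926, and lowest for Cdc25a with Cdc25b, at 0.293.

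Some member genes overlap a neighbour on the other strand in the GENCODE M21 annotation (GRCm38), and no source used here states whether the authors' counting used strand. Pkmyt1 (ENSMUSG00000023908, chr17:23726336-23736735, plus strand) overlaps Paqr4 by 550 bases, and Paqr4 stood at 3.90 and 4.24 CPM in tumour-like cells. Wee1 (ENSMUSG00000031016, chr7:110122046-110143286, plus) lies within the antisense transcript 1600010M07Rik, counted at 10.6 and 10.97 CPM, so the split of their reads is uncertain. Cdc25b (ENSMUSG00000027330, chr2:131186949-131198497, plus) overlaps Spef1, at 2.24 and 1.84 CPM, and Cdc25c (ENSMUSG00000044201) overlaps Gm3550, at 0.404 and 0.457 CPM. Cdc25a (ENSMUSG00000032477, chr9:109875579-109893895, plus) overlaps only the microRNA gene Mir7089. Cdk1 (ENSMUSG00000019942, chr10:69335146-69352938, minus), Ccnb1 (ENSMUSG00000041431, chr13:100778650-100786570, minus) and Ccnb2 (ENSMUSG00000032218, chr9:70407692-70421547, minus) overlap no other annotated gene. The pseudogene symbols Ccnb1-ps and Ccnb2-ps are not among the features counted, and the annotation was not searched for them.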

How the data were processed

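The deposited values are whole-number UMI counts per gene and cell barcode, 1 matrix per library, with 17313 vehicle and 15909 RP-6306 barcodes and 135415063 and 158073632 counts in all. The authors' build was mm10 and their tool Cell Ranger 2.1.1, as the submitters' processing notes list them without role or order. The sources used here name no further step. Cells with at least 500 UMIs, 300 genes and at most 15% mitochondrial counts were kept. Scrublet's automatic threshold marked 0 and 0 cells, so it had not worked, and the 6% of cells with the highest doublet scores were removed instead (1026 and 952).

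Counts were normalized per cell, and Leiden clusters were made without the 8 members with scanpy 1.11.5 and leidenalg 0.10.2 and named from listed markers. A cluster was named where its best mean log2(CPM + 1) over a marker list led the next list by 1.5, with at least 3 of that list's markers at 10 CPM. The lead asked of T subclasses was raised to 1.5 after its first output, cell numbers included, had been seen. The unnamed clusters (3581 vehicle and 1652 RP-6306 cells) enter no class. Levels are summed UMIs scaled to a total of 1000000 (CPM) with exact 95% Poisson intervals, and ratios carry exact conditional binomial intervals. Log2 ratios use CPM + 1, genes need 20 UMIs over both libraries to be counted, and a count of 0 is read as up to 3 counts. State scores used expression-matched control genes. Promoter and annotation tables came from RefSeq and GENCODE, in which 32235 of 32285 feature IDs were found. The calculations were tested on simulated counts. They used pandas 2.3.3 and scipy 1.17.1 on numpy 2.4.6 under Python 3.11.15, and figures matplotlib 3.10.9.

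The text names the 8 members, with all of them in the main comparisons and those picked after their values were seen in others, at most 4 genes per pathway list with the largest absolute log2 ratio among those at 10 CPM or more in the higher library, and the 3 nearest genes per member. One gene that this rule names is not reported here. The members and lists were chosen with earlier results of these data known. Alternatives to normalization, pseudocount, depth, doublets, clustering and state rules were run, and 3 were chosen after seeing the data: leaving out shared barcodes, adding unnamed clusters 0 and 12, and scoring states at 10000 UMIs.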

Additional observations from a re-analysis of the deposited data

Results flagged for a closer look

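Wee1 stood in opposite directions in 2 states of the tumour-like cells: higher in the RP-6306 library in S-only cells, at a log2 ratio of 0.54, and lower in cells with both scores above 0, at -0.28, a gap of 0.82. S-only cells also came from clusters 14 and 16 in different proportions, 63 and 87 in vehicle and 151 and 62 in RP-6306. The counting interval of each ratio excluded equality. With 1 library a group the difference itself was not tested.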

How the results depend on the processing

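No paired analysis was possible because each group is 1 library and no test was run. Of 254 alternative values of 44 results, 0 reversed in sign, though shares of states and counts of genes cannot reverse. As moved were marked 48 of the main results' values and 46 values of single genes' ratios between states. Moved means outside the counting interval of the value given above or, for counts of genes, changed by more than 1.5-fold. The cause was not tested. Standardised ratios borrowed the interval of the unstandardised ones. With cells of at least 1000 UMIs clustered anew, the log2 ratio over all tumour-like cells was 0.078 for Wee1, 0.010 for Cdc25b, 0.51 for Cdc25c, 0.38 for Cdk1, 0.55 for Ccnb1 and 0.33 for Ccnb2. A pseudocount of 10 CPM gave 0.40 for Cdc25a, 0.40 for Cdc25c, 0.48 for Cdk1, 0.57 for Ccnb1 and 0.36 for Ccnb2, thinning to 5000 UMIs gave 0.077 for Wee1, 0.63 for Cdk1 and 0.37 for Ccnb2, and the mean over cells gave 0.64 for Ccnb1. At 1.5-fold, 2 members and 9 pathway genes were higher and 0 pathway genes lower, against 5, 20 and 2 at the 25% rule. The shares of states depended on how states were set, although each cycling share was larger in RP-6306 under every setting run. With a score cut of 0.1 the vehicle and RP-6306 shares were 67.1% and 51.2% in neither state, 12.2% and 19.0% with both scores and 16.1% and 22.6% in G2/M only. At 2000 UMIs they were 6.79% and 8.44% in S only, 19.1% and 29.3% with both scores and 12.1% and 16.5% in G2/M only, and at 10000 UMIs 24.3% and 37.3% with both scores and 7.997% and 10.3% in G2/M only. With 3 states by the higher score, which leaves no state with both scores, they were 10.997% and 17.04% in S only and 25.9% and 36.4% in G2/M only. States set from histone and mitotic genes gave 70.7% and 57.4% in neither, 2.31% and 3.98% in S only, 12.1% and 17.6% with both scores and 14.9% and 21.01% in G2/M only, with standardised log2 ratios of 0.37 for Cdc25a and 0.17 for Cdk1. In all 5 state settings Pkmyt1, Wee1 and Cdc25b kept a standardised log2 ratio below 0 and the other members one above 0. Counting intervals set what depth can show; spread between animals is not covered by any of them.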

Other observations

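Unnamed clusters enter no class above, and their values are given here only as levels. Cluster 0, shallow cells with medians of 609 and 829.5 UMIs and tumour markers at 67.4% and 98.0% of the tumour-like level, held 1714 vehicle and 254 RP-6306 cells and had Cdk1 at 55.5 and 125 CPM and Cdc25c at 5.10 and 22.5 CPM. Cluster 12, with Neat1 and Cdh13 among its leading genes, held 299 and 165 cells and had Pkmyt1 at 18.6 and 20.97 CPM, Wee1 at 31.2 and 27.8 CPM and Cdk1 at 39.1 and 44.4 CPM. Its tumour markers stood at 48.0% and 44.1% of the tumour-like level. Cluster 22, where macrophage markers scored highest and tumour markers next, held 2 vehicle and 100 RP-6306 cells, and Cdk1 stood at 105 CPM in the latter. Cluster 21, 10 vehicle cells whose leading genes include Ccnb1 and Cdc25b themselves, had Ccnb1 at 256 CPM, Ccnb2 at 171 CPM and Cdc25b at 157 CPM.

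B-like cluster 2, led by Jchain and Mzb1, held 33 vehicle and 10 RP-6306 cells. In vehicle it had Cdc25a at 66.3 CPM (36.3 to 111) and Wee1 at 47.4 CPM (22.7 to 87.1), from 14 and 10 UMIs, beside S-phase list genes at 5767 CPM. Pkmyt1, Ccnb1, Ccnb2 and Cdc25c had 0 UMIs in its RP-6306 cells, where 3 counts would be 64.5 CPM.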
